A study of Mus musculus with 44 samples.

Results

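This report describes how the skeletal muscle transcriptome differed from animal to animal within 1 group of mice, the wild-type (WT) animals fed a high-fat diet (HFD). The group was chosen by its label alone, and it holds 11 of the 44 libraries of the series, with 1 muscle library per mouse. The mice were male littermates of a Slc16a13 knockout line on a C57BL/6N background that carried the intact gene, were fed HFD for 15 weeks and were killed at 20 weeks of age, by the study's methods after an overnight fast unless stated otherwise. The muscle taken for sequencing is not named in the sources used here. Each mouse is called by its animal number (516, 528, 531, 536, 537, 567, 586, 612, 616, 623 and 624). No library of the knockout or of the liver entered any value below.

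A limb muscle is a mosaic. Its fibres are slow or fast according to the myosin heavy chain they carry, and the proportion differs between muscles and between the deep and the superficial part of the same muscle. Around the fibres lie fat cells, fibroblasts that make collagen, macrophages, vessels, nerve and, towards the ends, tendon. Muscle also keeps a circadian clock, in which the activator Bmal1 (gene Arntl) drives repressors and output factors such as Dbp, and it responds within minutes to hours to handling, fasting and glucocorticoids. In RNA from whole tissue, fewer cells of a type and less RNA per cell cannot be told apart.

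The total count ranged from 21810239 to 33807727 reads per library, and all 55 pairs of libraries differed by more than sampling noise. The defining genes of skeletal muscle were abundant in every library. Ckm, the muscle creatine kinase, ranged from 18330 to 26000 CPM (the read count of a gene relative to the library total scaled by TMM), and Acta1, the skeletal actin, from 25710 to 33820 CPM. Of the 10 cardiac markers, Nppb and Myl7 had no read in any library and Mybpc3 had at most 1. Y-linked genes were counted in all 11 libraries (Ddx3y, 1640 to 2489 reads), Xist had at most 3 reads, and 0 of 4 Y-linked genes examined varied beyond genes of their level (adjusted p = 1.0 for each). Slc16a13, the gene the study is about, had 4 to 22 reads per library, with 0.180 CPM in mouse 536, a median of 0.427 and 0.855 CPM in mouse 531, and it did not vary beyond genes of its level (adjusted p = 1.0).

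A total of 13300 genes with a mean of at least 10 reads per library were examined. The spread of a gene was expressed as its biological coefficient of variation (BCV), an estimate of the relative SD between mice that remains after counting noise is removed. In edgeR this estimate is drawn towards the trend of genes of the same level (prior degrees of freedom 4.504). It is therefore not the gene's own SD alone. Of the genes examined, 10022 (75.4%) varied beyond counting noise, so most genes varied in this sense. The median CV between mice was 11.3%, against a counting CV of 5.70%. A stricter question was therefore asked of each gene, whether it varied more than genes of the same level usually do. This held for 770 genes, 5.79% of those examined, at an adjusted p below 0.05 from the goodness of fit of a negative binomial model (edgeR). A gene that meets it is said below to have passed, and every adjusted p of a single gene comes from this test. Each list's count below is to be read against this 5.79%, and a count near it is no result about the list. The BCV of the trend over all genes was between 10.3% and 28.6% depending on level. Over all genes examined, the median ratio of a gene's BCV to the trend was 0.77. The median CV of the 770 genes, which unlike a BCV includes counting noise, was 38.3%. When each gene was instead compared with the distribution of spreads fitted to these same genes (quasi-likelihood dispersions in edgeR), 0 genes passed. Of the 13300 genes, 777 had an unadjusted p below 0.05 in it. Because the distribution was fitted to the genes tested, a share near 0.05 follows largely from the fit. It does not decide whether the 770 calls exceed chance. DESeq2 marked 281 genes as dispersion outliers. The plot of spread against level shows which named genes stood highest above the trend.

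**Figure D1:**
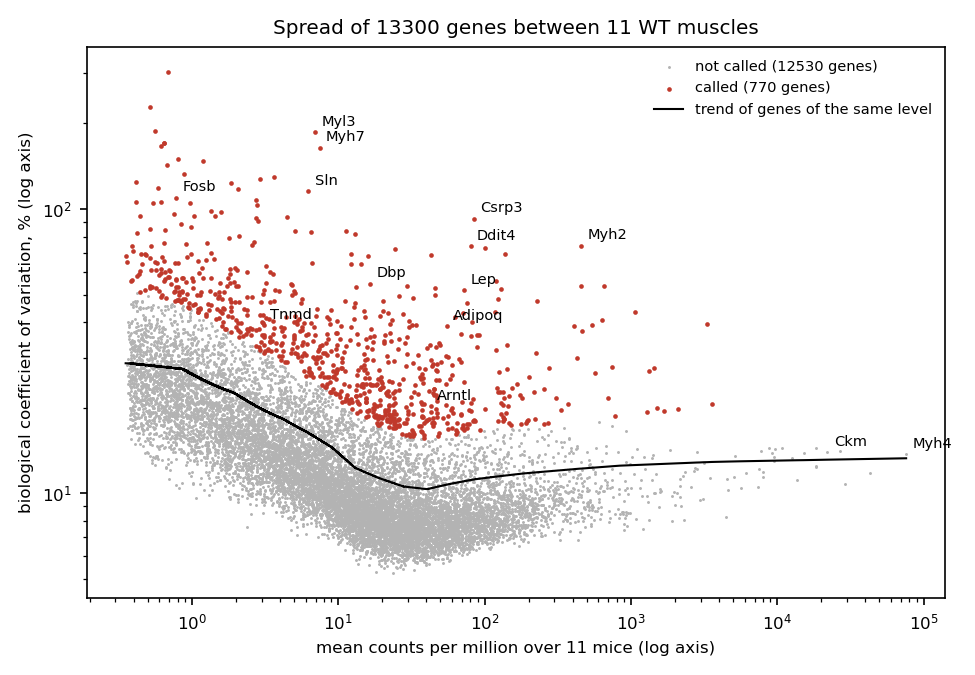
Each point is 1 gene, with its mean CPM over 11 mice on the x axis and its BCV in percent on the y axis (both log axes), and the black line is the trend of genes of the same level. The 770 genes that passed (red) lie above the grey genes, with Myl3 at 186% and Myh7 at 164%, while the abundant fast myosin Myh4 (13.7%) lies on the trend.

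Of the 25 gene lists, the slow fibre genes had the highest median spread. Of 15 members examined, 13 passed, against 5.79% of all genes examined. The median BCV of the 15 was 82.0%, against 11.0% over all genes examined. All 13 were highest in mouse 531. Myh7, the slow myosin heavy chain, was counted at 74.9 CPM in mouse 531 (1928 reads), with a median of 0.686 CPM over the 11 mice, 2.17 CPM in the next highest mouse and no read in mouse 528 (adjusted p = 6.91e-276). A single animal thus stood 34.5-fold above the next, and the other 10 lay close to the detection limit.

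The slow light chains and the slow troponin subunits followed the same order. Myl3, the slow essential light chain, was 69.9 CPM in mouse 531 and at most 2.88 CPM in the others. The regulatory light chain Myl2 stood at 24.2 CPM in mouse 531 and at 2.13 CPM in the next animal, an 11.3-fold gap. For the slow troponins Tnni1, Tnnc1 and Tnnt1, mouse 531 was 11.1-fold, 12.9-fold and 10.2-fold above the next highest mouse, which was 624 for each. Atp2a2, the slow calcium pump of the sarcoplasmic reticulum, was less extreme, with a lowest value of 41.9, a median of 49.5 and a highest value of 135.6 CPM. Atp2a2 and Tpm3, the slow tropomyosin, no longer passed without mouse 531, whereas the remaining 11 members still did.

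Several slow fibre genes were graded over more than 1 mouse. Csrp3, the Z-disc protein MLP, ran from 4.22 CPM in mouse 528 through a median of 49.9 to 332.3 CPM in mouse 531, with mouse 624 at 250 CPM. Ankrd2, a stretch-responsive nuclear protein, ran from 8.43 CPM in mouse 528 to 338.5 CPM in mouse 531. Myoz2, the slow-fibre calsarcin, had a 124-fold range, from 0.376 to 46.6 CPM. Mice 531 and 624 were the 2 highest and mouse 528 the lowest for each of these. Myl6b and Pln were the members that did not pass (adjusted p = 1.0 for both).

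Among 16 fast fibre genes, 2 passed, Myh2 and Myh1. Myh2 encodes the fast oxidative (IIa) myosin and Myh1 the intermediate (IIx) form. Myh2 had a lowest value of 31.7, a median of 321 and a highest value of 1434 CPM, a 45.3-fold range from mouse 528 to mouse 531 (adjusted p = 5.73e-115). Myh1 ranged from 1522 CPM in mouse 528 to 7452 CPM in mouse 624 (adjusted p = 6.47e-22). Myh4, the fast glycolytic (IIb) myosin, varied little, from 59600 CPM in mouse 624 to 91840 CPM in mouse 528 (BCV 13.7%, adjusted p = 1.0). The fast troponins, light chains, Atp2a1 and Pvalb, the calcium buffer of fast fibres, had an adjusted p of 1.0, and mice 624 and 531 were the lowest pair for each of the 14 fast fibre genes that did not pass.

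Per unit of gene length (the deposited RPKM), the 4 adult myosin heavy chains could be set against each other. Myh4 made up 87.42% of their sum in mouse 624, 91.28% in mouse 531 and 98.33% in mouse 528, with a median of 96.44%. The share of Myh1 was 10.96% in mouse 624 and 1.63% in mouse 528, that of Myh2 2.03% in mouse 531 and 0.03% in mouse 528, and that of Myh7 0.1% in mouse 531. All 11 samples were therefore dominated by IIb myosin, and the genes with the widest relative spread contributed little of the myosin mRNA. Across mice Myh2 and Myh4 went in opposite directions (Pearson r = -0.79, Spearman rho = -0.88, adjusted p = 0.060 and 0.062 from a permutation test), which did not pass, and r was -0.72 without the 2 mice farthest from the median of Myh2.

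**Figure D2:**
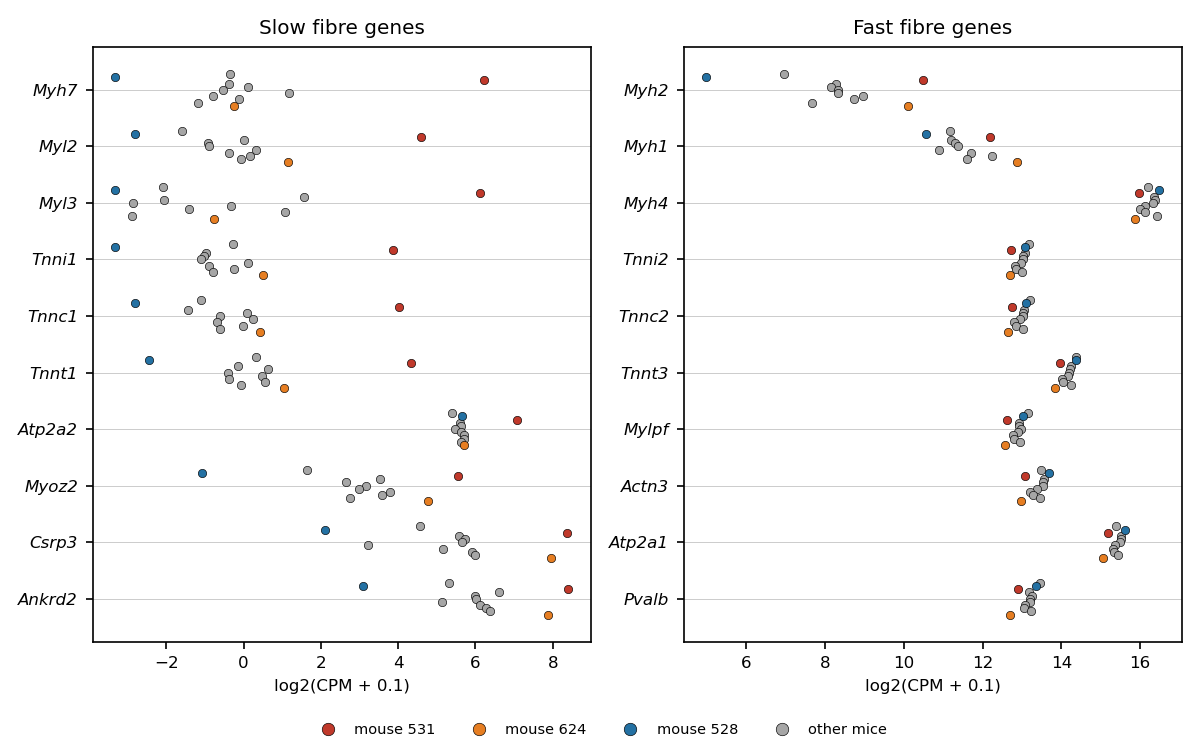
Each point is 1 mouse, with log2(CPM + 0.1) on the x axis and a row per gene, slow fibre genes on the left and fast fibre genes on the right. Mouse 531 (red) stands apart for the slow genes, mouse 528 (blue) is lowest for Myh2 at 31.7 CPM, and the fast genes from Myh4 downwards lie within a narrow band.

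Mb, myoglobin, was the 1 of 11 skeletal muscle markers that passed, from 295.6 CPM in mouse 528 through 857.2 to 2165 CPM in mouse 624. The small heat shock proteins Cryab and Hspb7, which guard the Z-disc, were 4.13-fold and 9.22-fold higher in the highest mouse than in mouse 528, the lowest for both. The inducible chaperones Hspa1a and Hspa1b were arranged otherwise, with mouse 536 highest at 5.67 and 4.55 CPM. They are near-identical copies that share reads, so their separate values are uncertain. In all, 5 of 11 heat shock genes passed, the fifth being Hspb1. Of 5 cardiac genes examined, Myh6, Actc1 and Sbk2 passed. Myh6, the fast cardiac myosin, was highest in mouse 531 (2.29 CPM) and without a read in mouse 528, while Actc1, the cardiac actin, was lowest in mouse 531 (73.4 CPM) and highest in mouse 516 (158.6 CPM). Each of the 3 lost its call without 1 mouse (528 for Myh6, 516 for Actc1 and 537 for Sbk2).

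Fat cell genes were looked at next. Of 18 adipocyte genes examined, 14 passed (median BCV 38.3%), and 12 of the 14 were lowest in mouse 536. Adipoq, the gene of adiponectin, had a lowest value of 21.9, a median of 52.2 and a highest value of 82.3 CPM (adjusted p = 2.14e-30). The high end was shared, with mice 531, 612, 516 and 624 between 77.5 and 82.3 CPM. Lep, the gene of leptin, ranged 6.72-fold, from 22.1 CPM in mouse 536 to 148.8 CPM in mouse 612. The lipid droplet proteins Plin1 and Cidec ranged 4.98-fold and 4.64-fold, from mouse 536 to mouse 624. Scd1, the stearoyl-CoA desaturase, ranged 5.60-fold between the same animals.

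Mice 516, 528, 531, 612 and 624 were above the others in the summed CPM of the adipocyte genes (1245 to 1796), and mice 536 and 537 were lowest (515.0 and 718.4). Adrb3, the β3-adrenergic receptor of fat cells, had the widest BCV of the list (66.5%), from 0.225 CPM in mouse 536 to 4.12 CPM in mouse 531, the latter based on 106 reads. Among genes of lipid synthesis, Fasn passed (21.4 to 47.0 CPM) while Acly and Thrsp did not (adjusted p = 1.0), nor did Pparg (adjusted p = 0.69) or Aqp7 (adjusted p = 0.12). Markers of brown fat had few reads. Ucp1, the uncoupling protein that defines it, had at most 2 reads in any library, and of 3 members examined only Cidea passed (0.209 to 2.25 CPM, highest in mouse 624). Without mouse 528 or without mouse 624, Cidea no longer passed.

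**Figure D3:**
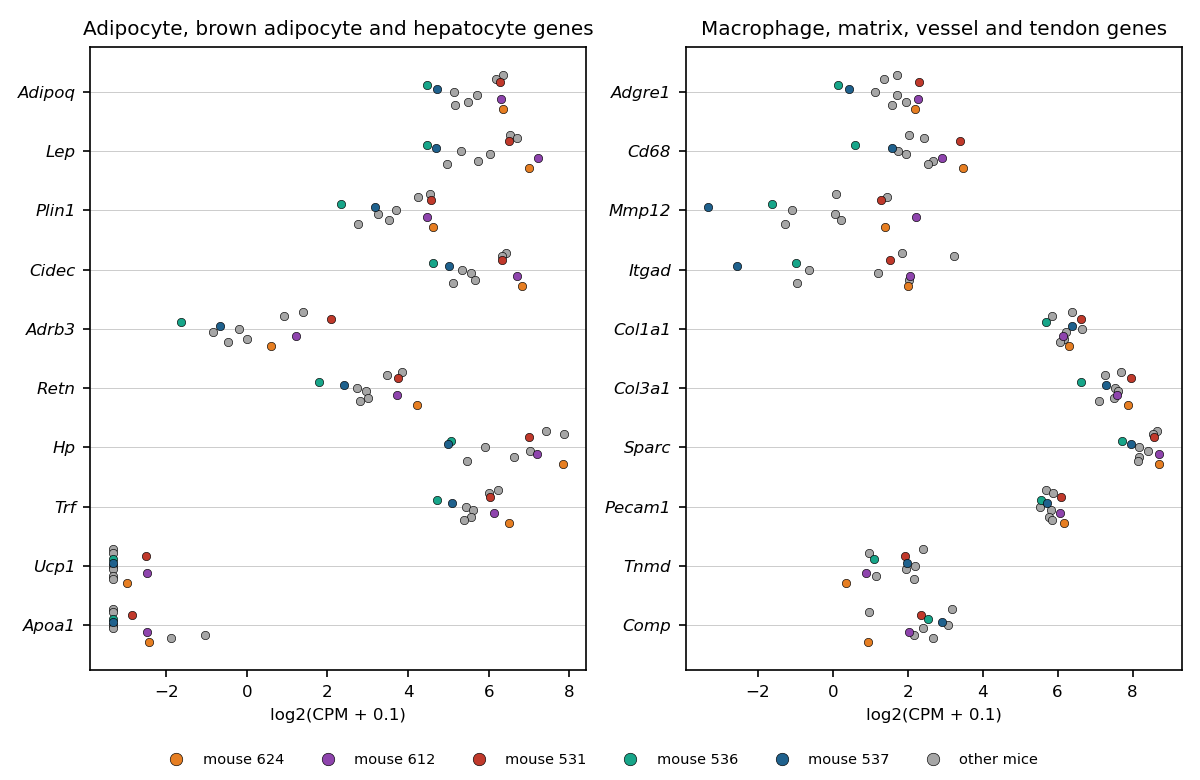
Each point is 1 mouse, with log2(CPM + 0.1) on the x axis and a row per gene. Mice 536 and 537 (green and blue) lie at the low end for adipocyte and macrophage genes, as for Adipoq (21.9 CPM in mouse 536), while Ucp1 and Apoa1 had few or no reads.

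Markers of other tissues were looked for in the same way. Of 14 hepatocyte genes, 4 were abundant enough to be examined, and these 4 passed. Hp (haptoglobin) and Trf (transferrin), which fat and muscle also make, ranged 7.42-fold and 3.46-fold and were low in mice 536 and 537, as the adipocyte genes were. In the GENCODE M21 annotation, 63.5% of the exonic bases of Trf overlap another gene on the same strand, so its count is uncertain. Alb, albumin, was 4.25 CPM in mouse 616 (109 reads) and at most 1.35 CPM in the others, and it did not pass without mouse 616. Cyp2e1, a cytochrome P450 that fat cells also express, was instead highest in mouse 531 (3.93 to 12.2 CPM). The 4 examined genes, dominated by Hp and Trf, summed to most in mouse 624 (329.3 CPM) and to 156.6 CPM in mouse 616. The 10 members too low to be examined, among them Apoa1, Apob, Ttr and Fga, together had 79 reads in mouse 616, 37 in mouse 612 and 3 to 12 in each of the others, and 7 of the 10 had their highest count in mouse 616. Their part in the Alb result was not tested. With no filter on low counts, 8 of the 14 hepatocyte genes passed, against 868 of all 21949 genes. Skin markers were also near zero (Krt14 and Krt1 had no read in any library, Krt5 at most 1), and 0 of 4 keratinocyte genes examined passed in edgeR's test. The keratinocyte genes summed to between 9.75 and 13.6 CPM, mostly Trp63.

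Nerve, blood and vessel lists were short and 5.79% of all genes examined passed, so few calls say little about these markers. None of the 10 Schwann cell genes examined passed, although Mbp, a myelin protein, was highest in mouse 531 (17.7 CPM, adjusted p = 0.11). Among 5 erythroid genes, Hbb-bs, an adult β-globin, passed (22.4 to 52.4 CPM), though not without mouse 528, and its copy Hbb-bt did not (adjusted p = 0.97). Granulocyte genes were not examined because each was too low (S100a8, at most 17 reads). Ighm was the only one of 12 lymphocyte genes with enough reads (46.6 to 107.1 CPM), and it passed with all mice but not without mouse 612, while Cd79a, Cd3e and Igkc had at most 7, 2 and 13 reads. Of 10 endothelial genes, Kdr, the VEGF receptor, passed, with a range from 20.8 CPM in mouse 567 to 46.5 CPM in mouse 531.

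Of 12 macrophage genes, 10 passed (median BCV 28.8%, 4 as DESeq2 dispersion outliers), and all 10 were lowest in mouse 536 and second lowest in mouse 537. Cd68, a lysosomal protein of macrophages, had a lowest value of 1.39, a median of 5.34 and a highest value of 11.0 CPM. Adgre1, which encodes the F4/80 antigen, ranged 4.91-fold, from 22 reads in mouse 536 to 4.86 CPM in mouse 531. Without mouse 536 the number that passed was 6, and C1qa, C1qc, Cd74 and Itgam were lost. Mmp12, the macrophage elastase, and Itgad, the integrin αD, were among the 25 genes of wide spread described below. Itgad was 9.35 CPM in mouse 528 and 0.0708 CPM in mouse 537, and both genes were at most 0.549 CPM in mice 536, 537, 567 and 623. Of 14 interferon-stimulated genes, 0 passed in edgeR's test, with the lowest adjusted p at Rsad2 (0.77). As 5.79% of all genes examined passed, this count is no result about the list.

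The genes of the collagen matrix passed in 12 of 15 cases (median BCV 19.3%), with 7 under a common dispersion and 3 as DESeq2 dispersion outliers. Col3a1 ran from 99.4 CPM in mouse 536 through a median of 185.4 to 247.6 CPM in mouse 531, and Col1a1 from 51.6 CPM to 99.4 CPM in mouse 567. Mouse 536 was the lowest for 10 of the 12. When it was left out, 5 members passed. The adipocyte count stayed at 14 whichever mouse was left out. Fn1 and Fbn1, fibronectin and fibrillin, were instead lowest in mouse 528 (34.05 and 23.7 CPM) and highest in mouse 531 (100.6 and 68.7 CPM).

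Tendon genes had other extremes. Of 9 members examined, 7 passed, against 5.79% of all genes examined. The same number of members passed when any single mouse was left out. Tnmd, tenomodulin, which marks tendon fibroblasts, ran from 1.17 CPM in mouse 624 through 3.73 to 5.21 CPM in mouse 516. Chad, chondroadherin, had a 9.42-fold range, from 1.04 CPM in mouse 528 to 9.83 CPM in mouse 516. Fmod, fibromodulin, ran from 28.9 CPM in mouse 528 to 103.5 CPM in mouse 623. Mice 528 and 624 were the 2 lowest for Thbs4, Fmod, Comp, Chad, Cilp2 and Kera, whereas for Tnmd they were mice 624 and 612, and mice 516, 537, 567 and 623 had the largest summed values (179.7 to 194.1 CPM against 57.9 in mouse 528). The transcription factors Scx and Mkx did not pass (adjusted p = 1.0). The cartilage genes Col2a1 and Acan had at most 7 and 1 reads.

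The position of a muscle along the body is marked by Hox and T-box genes. Their share of calls was near the 5.79% over all genes examined and is no result about this list. Of 15 examined, Hoxd8 passed (adjusted p = 0.00018, 92 to 296 reads), and the hindlimb factor Tbx4 was counted in every mouse (33 to 60 reads, adjusted p = 1.0). Pitx1 was too low to be examined (2 to 6 reads). Of the 13 protein genes of the mitochondrial genome, 7 had counts and did not pass, while 6, among them mt-Co2 and mt-Atp6, are listed at 0 in every library.

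Clock genes passed in 10 of 20 cases, against 5.79% of all genes examined. Dbp, the output factor, had the widest range of those, 8.37-fold, from 5.92 CPM in mouse 528 through a median of 13.6 to 49.6 CPM in mouse 516 (adjusted p = 4.79e-52). Arntl was 25.4 CPM in mouse 516 and 58.2 CPM in mouse 528 (adjusted p = 2.91e-05). The mouse highest in Dbp was thus lowest in Arntl, and the reverse. Across the 11 mice the correlation of Arntl with Dbp was r = -0.94 and rho = -0.94 (p = 5e-05 and 0.00014, adjusted over 171 pairs 0.0085 and 0.024, two-sided permutation tests with 100000 resamples). Without the 2 mice farthest from the median of Arntl, r was -0.84. This was the 1 pair of lead genes that passed by both measures. Without mouse 528, 531, 536 or 537 the adjusted p of rho was 0.080, 0.051, 0.081 or 0.087, and without mouse 567 that of r was 0.070, so the call is lost when any of these 5 mice is left out (r then between -0.923 and -0.939).

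The other clock genes did not all follow Dbp. Per2 and Ciart, both repressors, were lowest in mice 528 and 624 and highest in mouse 567 (11.97 and 7.54 CPM), where Dbp was second highest. Per3 was highest in mouse 516 (31.95 CPM) as Dbp was, but did not pass without mouse 516 or without mouse 623. Bhlhe40 did not pass without mouse 516 or without mouse 612, nor did Bhlhe41 without mouse 624. Per1 had its highest value in mouse 536 (165.5 CPM) and its lowest in mouse 623 (38.9 CPM), a 4.26-fold range, and Nfil3, a repressor that binds the same sites as Dbp, ran from 26.7 CPM in mouse 516 to 70.0 CPM in mouse 536. Nr1d1, the gene of REV-ERBα, did not pass (145.3 to 228.9 CPM, adjusted p = 0.43), nor did Clock, Cry1, Cry2 and Rora (adjusted p = 1.0). Dbp and Arntl also went with the slope of a library on gene length (r = -0.69 and 0.71, permutation p = 0.020 and 0.016, adjusted p = 0.35), which was lowest in mouse 516. With gene length removed from every library, the correlation of Arntl and Dbp was -0.935. The labels name no sequencing pool or other batch, so none could be examined.

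Promoters of 4 of these genes are shown because they hold the sequences that the clock's own factors are known to bind. They come from RefSeq on build GRCm38.p6 (17 of the 20 clock genes matched), run 5′ to 3′ on the gene's strand from 250 bases before to 50 after the start site, and carry each match in capitals. In Ciart (chr3:95882179-95882478, minus strand) and Per1 (chr11:69098699-69098998, plus strand) the capitals are the E-box CACGTG, the site of BMAL1 and CLOCK. In Arntl (chr7:113207261-113207560, plus strand) they are TAGGTCA, the core of the element bound by ROR and REV-ERB, and in Per3 (chr4:151044616-151044915, minus strand) the D-box TTATGTAA, the site of DBP and NFIL3.
Ciart: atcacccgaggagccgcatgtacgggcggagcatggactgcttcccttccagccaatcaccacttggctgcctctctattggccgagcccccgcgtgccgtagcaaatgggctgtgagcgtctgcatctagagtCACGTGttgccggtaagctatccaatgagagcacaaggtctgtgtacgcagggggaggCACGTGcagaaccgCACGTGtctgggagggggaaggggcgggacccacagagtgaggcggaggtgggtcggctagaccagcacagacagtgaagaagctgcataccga
Per1: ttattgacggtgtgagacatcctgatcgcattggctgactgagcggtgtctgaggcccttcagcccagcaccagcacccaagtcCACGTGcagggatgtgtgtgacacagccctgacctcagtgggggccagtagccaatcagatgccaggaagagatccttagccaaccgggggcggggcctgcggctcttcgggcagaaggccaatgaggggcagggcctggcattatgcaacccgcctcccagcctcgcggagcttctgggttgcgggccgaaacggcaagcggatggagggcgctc
Arntl: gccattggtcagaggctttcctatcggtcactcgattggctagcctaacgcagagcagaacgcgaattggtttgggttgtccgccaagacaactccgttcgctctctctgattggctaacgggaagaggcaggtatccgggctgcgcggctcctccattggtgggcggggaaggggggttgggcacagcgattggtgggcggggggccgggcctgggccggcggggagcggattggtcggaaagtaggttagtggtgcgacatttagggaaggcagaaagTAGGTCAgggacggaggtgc
Per3: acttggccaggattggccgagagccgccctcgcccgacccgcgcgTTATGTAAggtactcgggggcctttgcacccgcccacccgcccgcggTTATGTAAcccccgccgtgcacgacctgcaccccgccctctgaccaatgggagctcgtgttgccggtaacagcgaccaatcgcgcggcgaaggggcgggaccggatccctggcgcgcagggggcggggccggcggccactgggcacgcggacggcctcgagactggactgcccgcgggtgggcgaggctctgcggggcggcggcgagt

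On both strands, CACGTG was found in 7.15% of all 32851 promoter windows, TAGGTCA in 2.61% and TTATGTAA in 0.94%, and none of the 3 motifs is contained in another. The Ciart window held CACGTG 3 times and the Per3 window TTATGTAA 2 times. Of the clock genes that matched, 5 held CACGTG, of which Ciart, Per1 and Bhlhe41 passed and Cry1 and Tef did not. TAGGTCA was found in Arntl and Nfil3, and TTATGTAA in Per3. A match describes the letters of the window and is no evidence of binding in these muscles.

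**Figure D4:**
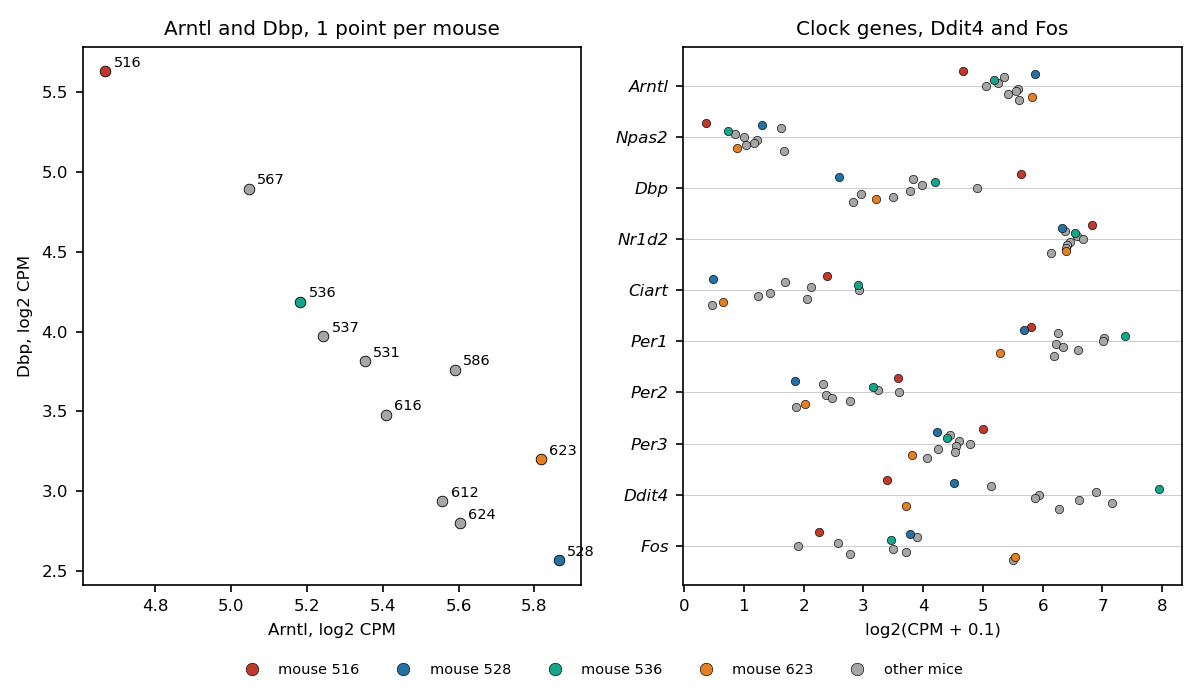
On the left, each point is 1 mouse, with log2 CPM of Arntl on the x axis and of Dbp on the y axis, and on the right log2(CPM + 0.1) is drawn with a row per gene. Dbp falls as Arntl rises, from mouse 516 (red, 49.6 CPM of Dbp) to mouse 528 (blue, 5.92 CPM), whereas Per1 and Ddit4 are highest in mouse 536 (green).

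Immediate early genes, which are transcribed within minutes of a stimulus, passed in 14 of 18 cases, against 5.79% of all genes examined. They varied in more than 1 pattern. Fos ran from 3.66 CPM in mouse 567 through a median of 11.2 to 46.1 CPM in mouse 623 and 45.2 CPM in mouse 624, and Egr1 from 2.02 CPM in mouse 536 to 18.99 CPM in mouse 623. A different set was highest in mouse 536, including the orphan receptors Nr4a1 (270.5 CPM), Nr4a2 (4.18 CPM) and Nr4a3 (9.90 CPM). Mouse 536 was the highest for 7 of the 14 and mouse 516 the lowest for 8. Fosb was highest in mouse 528 (3.59 CPM, 86 reads), and Atf3, a stress factor, in mouse 531 (42.1 CPM).

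Genes that respond to fasting and glucocorticoids passed in 14 of 20 cases, against 5.79% of all genes examined. Ddit4, an inhibitor of mTORC1, had the widest BCV of the list (73.8%), from 10.4 CPM in mouse 516 through 61.5 to 247.3 CPM in mouse 536. Sgk1, a glucocorticoid-induced kinase, ran from 58.6 to 219.2 CPM between the same mice. Mt1 and Mt2, the metallothioneins, ran from 5.70 and 3.16 CPM in mouse 623 to 26.6 and 15.8 CPM in mouse 536. Pdk4, which spares glucose in fasting, was abundant and less variable (1951 CPM in mouse 516 to 4908 CPM in mouse 624), and like the ubiquitin ligases Trim63 and Fbxo32 it did not pass without mouse 516. Pdk4 also went with the total count (r = 0.665, permutation p = 0.027, adjusted p = 0.35). With the slope on gene length its r was 0.644 (permutation p = 0.048, adjusted p = 0.46). Mouse 516 had the lowest total count and the lowest slope. Fkbp5, Klf9, Klf15 and Ucp3 did not pass (adjusted p = 0.29, 1.0, 1.0 and 0.88).

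Mouse 616 stood apart in genes of regeneration and denervation. Of 13 genes of regeneration and denervation examined, 8 passed, and these 8 were highest in mouse 616. Chrng and Mymx had enough reads to be examined only through mouse 616 (means of 7.7 and 5.1 reads in the other 10), so their place among the 8 is fixed by the filter and is no support. Chrng, the fetal subunit of the acetylcholine receptor, was 7.10 CPM in mouse 616 (182 reads), 1.22 CPM in mouse 624 and at most 0.330 CPM in the other 9. Mymx, the myomixer of myoblast fusion, was 7.22 CPM in mouse 616 and 0.825 CPM in mouse 624. Chrnd, Runx1 and Myog, which rise in denervated fibres, were 3.61-fold, 2.22-fold and 1.84-fold above the next highest mouse. Myh3, the embryonic myosin, was similar in mice 616 and 624 (5.11 and 4.38 CPM), and it was the 1 of 11 members examined that passed without mouse 616.

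Genes outside the list were also highest in mouse 616. Sln, sarcolipin, the small inhibitor of the calcium pump, was 51.8 CPM in mouse 616 and between 0.765 and 3.76 CPM in the other 10, a 13.8-fold gap to the next (adjusted p = 2.51e-137). Aif1l, an actin-bundling protein, was 30.8 CPM there and at most 3.53 CPM elsewhere, and Aldh3a1 10.7 CPM against at most 1.68 CPM. The satellite cell factors Pax7 and Myf5, Myod1 and the neonatal myosin Myh8 did not pass (adjusted p = 1.0 for each). The macrophage genes summed to 201.6 CPM in mouse 616 and to 221.4 CPM in mouse 531, and their part in this result was not tested. Without mouse 616, Sln (adjusted p = 0.051), Aif1l and Aldh3a1 did not pass.

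The 25 genes with the widest BCV were taken from those that passed with a mean of at least 1 CPM. Symbols that start with Gm or end in Rik or ps were left out. These 25 were led by Myl3 (186%), Myh7 (164%) and Pagr1b (147%). Apart from the genes of slow fibres, of mouse 616 and of macrophages already named, they held Slc15a2, a peptide transporter, which ran from 0.209 CPM in mouse 528 to 22.2 CPM in mouse 623, and Eps8l1, from 0.0835 CPM in mouse 528 to 6.46 CPM in mouse 623. Bdh1, the ketone body dehydrogenase, ran from 0.376 to 25.03 CPM, from mouse 528 to mouse 531. Tph2 and Ubd ran with Itgad, and Tph2 was 0.0708 CPM in mouse 537 and 4.75 CPM in mouse 624. In 3 of the 25, most exonic bases are shared with other genes. Pagr1b was near 0 in 7 mice and 2.38 to 3.97 CPM in 4 (100% of its exonic bases overlap other genes on its strand, among them its copy Pagr1a), Gemin4 was 0 in mice 531 and 567 and 8.82 CPM in mouse 516 (89.8% overlap, with Glod4), and Tnfsfm13 was 0 in mice 537 and 586 (76.7% overlap, with Tnfsf12 and Tnfsf13). The values of these 3 genes are uncertain.

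For 122 of the 770 genes, 1 mouse held over 50% of the squared deviation. Mouse 536 was that mouse on the low side for 22 genes, mouse 528 for 19 and mouse 516 for 15. On the high side it was mouse 616 for 19, mouse 531 for 15 and mouse 516 for 8. Counted over all 13300 genes the order differed, and mouse 516 held that place most often on both sides (330 genes low and 108 high), ahead of mouse 536 on the low side (226) and mouse 531 on the high side (50). Between 85.7% and 95.1% of the 770 genes still passed when any single mouse was left out.

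The genes that passed were then grouped by how they varied together. Between pairs of these genes the correlation exceeded 0.8 in 7.24% of pairs, against 0.64% over all genes examined. Genes were chosen for their spread and are not independent, so these shares describe the data and no test was made. Joining genes at a distance of 0.4 (1 minus Pearson's r, average linkage) gave 12 modules of at least 10 genes, which held 586 genes (76.1% of those that passed).

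The largest module had 262 genes, and 172 when mouse 536 was left out. It held 13 adipocyte genes, 10 macrophage genes and 9 collagen matrix genes, and its leading genes were Sod3, Ccdc80, Mme, Aoc3 and Col18a1. The mean log2 deviation of its genes was -1.0 in mouse 536, -0.64 in mouse 537, 0.59 in mouse 612 and 0.68 in mouse 624. Adipoq and Adgre1, the lead genes of fat and macrophages, were correlated over mice (r = 0.85, rho = 0.77), but neither passed after adjustment (p = 0.060 and 0.14, permutation tests), and r was 0.60 without the 2 mice farthest from the median of Adipoq. The 5 genes most like Adipoq over the 11 mice were Ifi27l2a, Dram1, Ccdc80, Rarres2 and Sparc, with r between 0.984 and 0.988. They were picked as the highest r among 13300 genes, so high values follow in part from that choice. The same holds for the genes most like Myh2 and Myh7 below.

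The second module held 125 genes, with 13 slow fibre genes, Myh1, Myh2, Mb and 3 heat shock genes, and was led by Fgf1, Fndc5, Rab15, Actn2 and Mb. Its mean deviation was 1.15 in mouse 531, 0.86 in mouse 624 and -1.26 in mouse 528. The genes most like Myh2 were Bdh1, Myoz2, Atp1b1, Esrrg and Fxyd6 (r of 0.966 to 0.988), and those most like Myh7 were the troponins Tnnt1, Tnnc1 and Tnni1 with Ppm1e and Myl2 (r of 0.908 to 0.961). Ppm1e did not pass (adjusted p = 1.0), and like the others it was highest in mouse 531.

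A further matrix module separated from the first. Module 3, of 30 genes, held Fn1, Fbn1, Col1a1, Col14a1, Pi16, Cd248 and Mfap5 and was led by Adgrd1, Emilin2, Fn1, Axl and Pi16. It was lowest in mouse 528 (-0.90) and highest in mouse 531 (0.71), with mice 586, 567 and 616 at 0.58, 0.46 and 0.46. Pi16 itself ran from 9.01 CPM in mouse 528 to 48.2 CPM in mouse 531. Hbb-bs was the 1 erythroid gene of this module, and its correlation with Col1a1 (r = 0.83, rho = 0.70) did not pass after adjustment (p = 0.060 and 0.22, permutation tests).

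Module 4 (27 genes, of which 2 were immediate early and 2 fasting and glucocorticoid genes, led by S1pr1, Zfp36, Nfkbia and Ddit4, with an unnamed gene model among its leading 5) was lowest in mouse 516 (-0.90) and highest in mice 616 and 536 (0.64 and 0.63). Slc25a25, the ATP-magnesium carrier of mitochondria, was among its members and ran from 17.7 CPM in mouse 528 to 381.3 CPM in mouse 536. Modules 11 (14 genes, with Per1, Cebpb, Cebpd and Tsc22d3) and 12 (12 genes, with Nr4a2, Nr4a3, Sik1 and Nfil3) both had their highest mean in mouse 536 (1.16 and 1.05). Module 9, with Fos, Egr1, Fosb, Dusp1 and Pdk4, was instead highest in mice 623 and 624 (0.94 and 0.74).

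Module 5 was the group of mouse 616 (23 genes, mean deviation 2.29 there and between -0.72 and 0.31 elsewhere), led by Aif1l, Sln, Aldh3a1, Mfsd7a and Runx1. Beside 6 genes of regeneration and denervation it held Alb and Krt18, a keratin of simple epithelia, which was 2.69 CPM in mouse 616 and at most 0.496 CPM in the others. Chrng and Mymx, among these 6, and Krt18 had enough reads to be examined only through mouse 616. Their place in the module, and their part in its mean of 2.29, are fixed by the filter and are no support. Of the 770 genes that passed, 25 were examined only through their highest mouse. The part of Alb and Krt18 in the module was not tested. Module 6 (20 genes) was led by Depp1, Arntl, Exph5, Gm15943 and Dyrk2, held Trim63 and Fbxo32, and was set by its low mean in mouse 516 (-1.41). Of the exonic bases of Gm15943, 42.7% overlap Fbxo32 and Klhl38, also in module 6, on the opposite strand. Whether shared reads place Gm15943 in the module was not tested. Depp1, a FOXO target, was 7.50 CPM in mouse 516 and 103.8 CPM in mouse 528. Module 7 (20 genes) held 6 tendon genes beside Dbp and Bhlhe40, and was high in mouse 516 (1.05) and low in mouse 624 (-1.35). Tnmd and Dbp had r = 0.71 over the mice (rho = 0.74), with adjusted p = 0.14 and 0.19 (permutation tests). Module 8 held Per2, Ciart, Usp2 and Noct, and was highest in mouse 567 (0.64).

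**Figure D5:**
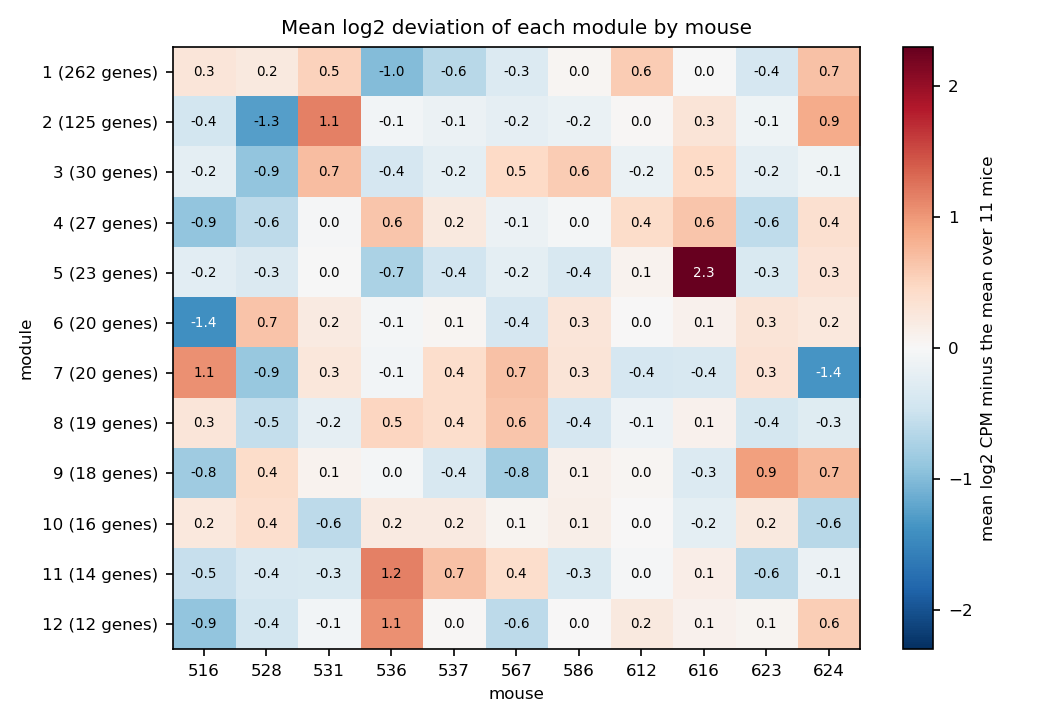
Rows are the 12 modules, columns the 11 mice, and the colour and number give the mean over the module's genes of log2 CPM minus the gene's mean over mice. Module 5 is high in mouse 616 (2.29), module 2 in mice 531 and 624, and module 1 is low in mice 536 and 537.

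Of 171 pairs among 19 lead genes, 26 had an unadjusted Pearson p below 0.05 and 1, Arntl with Dbp, passed by both measures after adjustment. Neither the total count nor the slope on gene length passed with any of the 19 lead genes (0 of 38 relations by the permutation test after adjustment, and 4 with an unadjusted Pearson p below 0.05).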

How the data were processed

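The 11 muscle libraries of WT mice fed HFD were used. Poly(A) RNA had been sequenced by the authors as directional, single-end reads of 85 bases. The authors deposited raw read counts per gene for 38202 genes and, in a second table, RPKM values they had calculated. Which aligner, counter, build and annotation were used is not given in the sources used here, and neither is each library's multiplex pool. Symbols were matched for 36340 genes.

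Genes with a mean of at least 10 reads entered an intercept-only fit of edgeR 4.0.16 under R 4.3.3, with TMM scaling. The residual deviance was compared with chi-square on 10 degrees of freedom, under Poisson counts and under the trended dispersion, with Benjamini-Hochberg adjustment at 0.05. There is 1 group, so no contrast was fitted. Correlations used log2 CPM with a prior count of 2, and two-sided permutation tests with 100000 resamples in Python 3.11.15. Summed levels of a list cover its examined members. Overlapping exons were taken from GENCODE M21. The procedure was run on simulated counts in which genes had the spread of the trend, apart from a chosen set with extra spread. That is what the test assumes, so the simulation could not show whether too many genes passed in the real data. Where a gene has few reads, counting error limits its value, and PCR duplicates were not distinguishable.

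The members and the gene lists were chosen with earlier results of these data known. The genes named were the lead gene of each of 25 lists and up to 4 of its members with the largest BCV, the 25 genes with the largest BCV that passed, the 5 genes best correlated with the mean of each of the 6 largest modules, the 5 genes most like a lead gene, and Slc16a13. The 25 leave out genes with a mean under 1 CPM and symbols that start with Gm or end in Rik or ps. Other members of lists and modules were named after their values were seen. Alternatives were DESeq2 1.42.0, other scalings, filters, dispersions and prior counts, log2(RPKM + 0.1), gene length removed by loess, other tree cuts and each mouse left out.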

Additional observations from a re-analysis of the deposited data

How the results depend on the processing

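Of the alternatives tried for the number of genes that varied more than genes of their level (770), 2 moved it by over 1.5 times. Quasi-likelihood dispersions in edgeR gave 0 genes (777 of 13300 at an unadjusted p below 0.05), with a reference fitted to the spread of these same genes. DESeq2 dispersion outliers numbered 281, so the size of this set depends on how the spread of a single gene over 11 mice is judged. Leaving out each mouse gave 691 to 756, and 9403 to 9935 for the genes beyond counting noise. The number of lead gene pairs that passed (1) was 2 with scaling by library size alone and 2 on log2(RPKM + 0.1), where Myh2 with Myh4 was added, and 0 to 3 when each mouse was left out. The correlation of Arntl with Dbp was -0.955 to -0.895 when each mouse was left out, and without mice 528, 531, 536, 537 or 567 either its Pearson or its Spearman adjusted p rose above 0.05. Modules numbered 10 to 16 when each mouse was left out. Relations with a technical measure that passed stayed at 0 when each mouse was left out (0 to 0). No paired analysis was possible because 1 group was described and no groups were compared. DESeq2 dispersion outliers also lowered the calls of clock (10 to 6), tendon (7 to 4), fasting and glucocorticoid (14 to 8), regeneration and denervation (8 to 5), macrophage (10 to 4) and collagen matrix genes (12 to 3, and to 7 under a common dispersion), while slow fibre stayed at 13 and adipocyte gave 11. The largest module (262 genes) had 172 without mouse 536, 195 without mouse 624 and 206 with the tree cut at 0.3. Scaling by library size alone gave 3 endothelial calls in place of 1 and 1 Schwann cell call in place of 0. With edgeR's filterByExpr, which drops genes below its count cutoff in some of the mice, 6 slow fibre genes were tested and 5 passed. Without mouse 531 or 624, 2 limb position genes passed in place of 1. Depth limits genes with a few reads per library, such as Ucp1 and the liver and skin markers.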
